A study of Mus musculus with 10 samples.

Results

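The endoplasmic reticulum (ER) folds, glycosylates and quality-checks the secreted and membrane proteins of a cell, and its chaperones, degradation factors and stress sensors were followed here in mouse livers overexpressing Phf2, a histone demethylase. The members were 33 listed genes, each read through the array feature that carries its symbol alone and has the highest mean over all arrays, and all 33 were among the 19938 genes tested. By role they comprised 15 chaperones and foldases, 7 genes of ER-associated degradation and protein entry, the sensors Ern1, Atf6 and Eif2ak3 with the transcription factor Xbp1, and 7 genes of the PERK/ATF4 arm.

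Male C57BL/6J mice, 8 weeks old, received an adenovirus encoding Phf2 (5 mice) or, as controls, an adenovirus encoding GFP, a fluorescent protein (5 mice), through the tail vein. Their livers were taken in the fed state 3 weeks later, and 1 Affymetrix Gene ST array was hybridized per liver. Both groups thus carried a virus and no uninfected livers were analysed. The methods state that animals without overexpression of GFP or Phf2 were taken out of the cohort, and the array feature of Phf2 itself does not check the labels, with a log2 fold change of -0.05 ± 0.08 (SE, adjusted p = 0.751). All values below are log2 values after robust multi-array averaging (RMA), so that a difference of 1 is a doubling, and they compare a gene between livers and never one gene with another. Fold changes are the Phf2 mean minus the GFP mean on this log2 scale, with standard errors and p-values from limma. This linear model estimates a spread for each gene and draws it toward a value estimated from all genes. The p-values were adjusted across the 19938 genes (Benjamini-Hochberg).

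When unfolded proteins build up in the ER, 3 membrane sensors respond. ATF6 is cut and its free part enters the nucleus, IRE1 (Ern1) splices the Xbp1 mRNA so that the active factor is made, and both factors switch on chaperones and degradation genes, many of which carry the ER stress response element in their promoters. The third sensor, PERK (Eif2ak3), phosphorylates the initiation factor eIF2α, which slows translation in general but favours that of ATF4, the activator of amino acid and stress genes such as Asns, Chac1, Trib3, Atf3 and Ddit3. Other kinases feed into ATF4 as well, among them one that senses amino acid shortage. In hepatocytes, which secrete most plasma proteins, these genes run at a high level and follow feeding. The arrays read total mRNA, so neither the splicing of Xbp1 nor the cleavage of ATF6 or the translation of ATF4 was measured.

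Of the 33 genes, 1 was higher and 3 were lower in Phf2 livers. Derl1, a channel component of ER-associated degradation, rose by 0.48, whereas the chaperone cofactor Sdf2l1 and the degradation factors Sel1l and Edem1 fell. The share of all tested genes called higher was 5.43% and that called lower was 4.24%, against 3.03% and 9.09% of the 33 members. Without adjustment, 12 members had a limma p under 0.05, with 5 higher and 7 lower. The share of all genes at that unadjusted threshold was not counted, so these 12 have no background to be read against. Below 0 lay 24 of the 33 fold changes (72.7%, against 54.7% of all genes), and the median was -0.10 (all genes -0.01). All 5 Phf2 arrays lay above all 5 GFP arrays for 3 members, Derl1, Trib3 and Atf3, and below them for Sel1l and Edem1, against 4.71% and 4.36% of all genes.

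**Figure D1:**
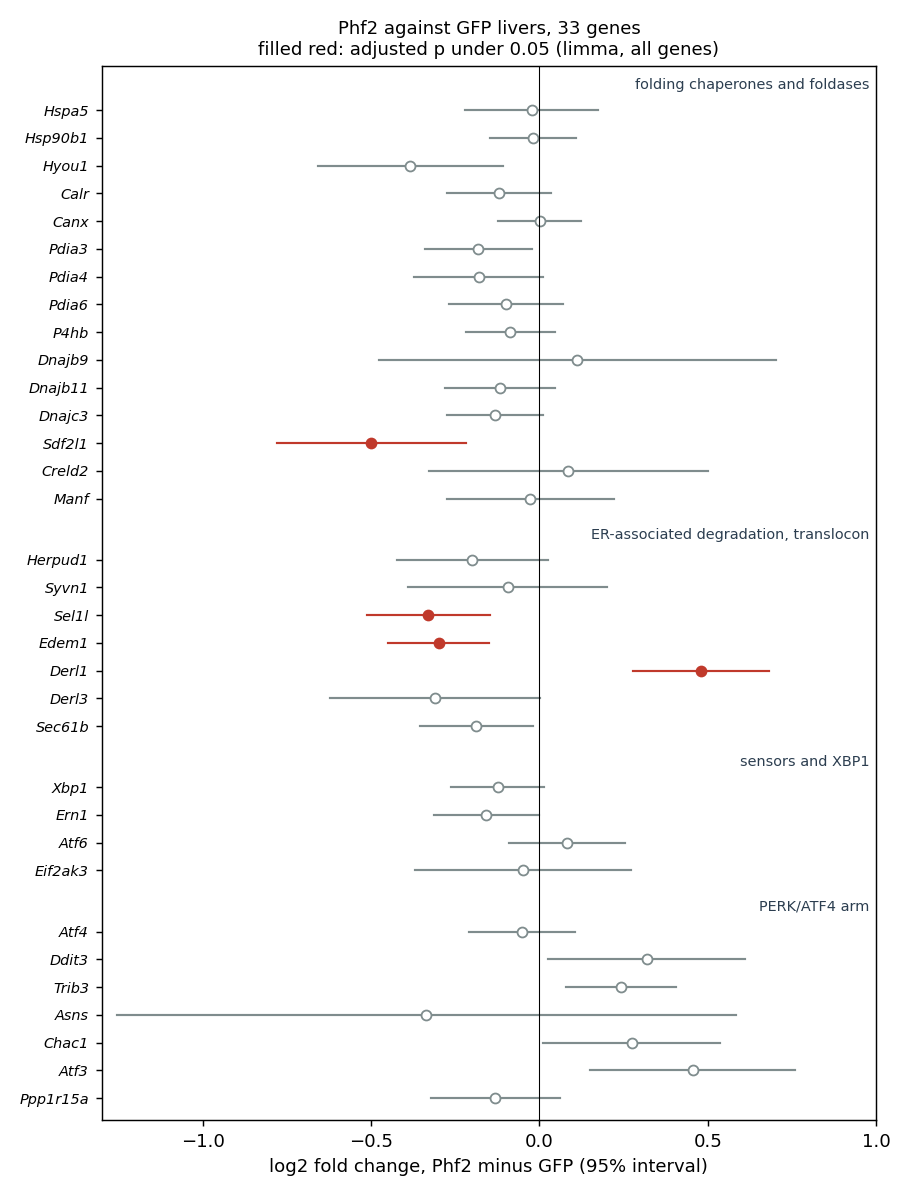
Log2 fold change of each of the 33 genes (x axis, Phf2 minus GFP, with its 95% interval), grouped by role. Filled red points mark the 4 genes past the adjusted threshold, Sdf2l1, Sel1l and Edem1 to the left of 0 and Derl1 to the right, and the interval of Asns is the widest, from -1.26 to 0.58.

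The medians of the 2 arms lay on different sides of 0. In the ATF6/XBP1 arm, made up of the chaperones, the degradation and entry genes and Xbp1, 19 of 23 fold changes were below 0 (82.6%). Their median was -0.12 (all genes -0.01). In the PERK/ATF4 arm 4 of 7 were above 0 and 3 below (42.9%), against 54.7% of all genes below 0. The median there was the Trib3 value of 0.24, and 0 of 7 passed the adjusted threshold (all genes 5.43% higher and 4.24% lower). The mean of the 23 genes of the ATF6/XBP1 arm was 9.56, 9.62, 9.62, 9.72 and 9.51 on the Phf2 arrays, against 9.68, 9.56, 9.92, 9.63 and 9.84 on the GFP arrays, so that the groups overlapped and GFP replicates 3 and 5 stood highest. The mean of the 7 PERK/ATF4 genes was 6.33, 6.52, 6.60, 6.59 and 6.36 on the Phf2 arrays, against 6.64, 6.29, 6.19, 6.33 and 6.41 on the GFP arrays. GFP replicate 1 was the highest of all, and Asns was far higher there than on any other array. With Asns set aside, a choice made after its values were seen, the mean was 6.36, 6.50, 6.62, 6.58 and 6.40 on the Phf2 arrays, against 6.31, 6.34, 6.28, 6.25 and 6.36 on the GFP arrays. The lowest Phf2 array and the highest GFP array then met at 6.36. The gap between the arms on one array (the ATF6/XBP1 mean minus the PERK/ATF4 mean without Asns) spanned 3.00 to 3.20 on the Phf2 arrays and 3.21 to 3.64 on the GFP arrays. With Asns included these ranges were 3.02 to 3.22 in Phf2 and 3.04 to 3.73 in GFP livers and overlapped. These gaps are descriptions of these arrays and carry no test.

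**Figure D2:**
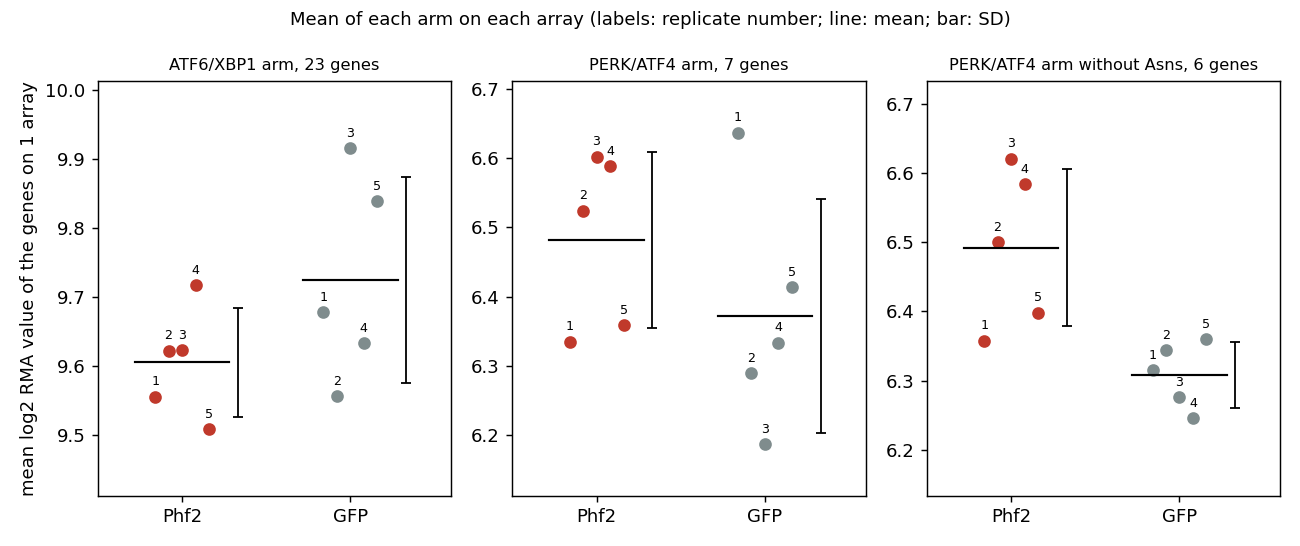
Mean log2 RMA value (y axis) of the genes of an arm on each of the 5 Phf2 (left) and 5 GFP (right) arrays, with the replicate number, the group mean (line) and SD (bar), and a different y range in each panel. GFP replicate 1 stands at 6.64 in the 7-gene PERK/ATF4 panel and at 6.31 once Asns is left out.

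The chaperones proper changed little. Hspa5 encodes BiP, the abundant Hsp70 chaperone of the ER that also holds the sensors inactive, and its mRNA is the usual readout of ER stress. Hspa5 was at 11.52, 11.62, 11.57, 11.63 and 11.46 in Phf2 livers, against 11.43, 11.34, 11.82, 11.58 and 11.74 in GFP livers. The Phf2 values all lay inside the range of the GFP values. The difference of -0.02 ± 0.09 (SE, adjusted p = 0.921) had a 95% interval from -0.22 to 0.17. Hsp90b1 (Grp94, the ER Hsp90) and Canx (calnexin, a lectin chaperone in the ER membrane) had fold changes of -0.02 and 0.00, with intervals from -0.15 to 0.11 and from -0.12 to 0.12. The sign of the Hspa5, Hsp90b1 and Canx values turned under other settings.

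Sdf2l1 was the one chaperone gene past the threshold. Its protein binds the BiP cofactor ERdj3 (Dnajb11) and keeps BiP clients from aggregating. Sdf2l1 was at 7.63, 7.87, 7.76, 8.07 and 7.72 in Phf2 livers, against 8.17, 8.03, 8.64, 8.11 and 8.59 in GFP livers. The groups overlapped through Phf2 replicate 4 and GFP replicate 2 alone, and GFP replicates 3 and 5 were the highest. Sdf2l1 fell by 0.50 on the log2 scale (SE 0.13, adjusted p = 0.0287, two-sided exact permutation p = 0.0159), or to 0.707 of its GFP level. The call was lost without any one of GFP replicates 3 and 5 or Phf2 replicates 1, 2, 3 and 5, with fold changes from -0.51 to -0.42 and adjusted p up to 0.0658.

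Hyou1, the Grp170 exchange factor of BiP, came next among the chaperones. It was at 7.96, 8.32, 8.34, 8.35 and 7.87 in Phf2 livers, against 8.65, 8.27, 8.85, 8.39 and 8.60 in GFP livers, and the difference of -0.38 ± 0.13 (SE) had an adjusted p of 0.0825, which passed only after a further quantile normalization (adjusted p = 0.0495). The disulfide isomerases Pdia3, Pdia4, Pdia6 and P4hb had fold changes of -0.18, -0.18, -0.10 and -0.09, and the lectin chaperone Calr (calreticulin) had -0.12, with adjusted p from 0.158 to 0.526. The J-domain cofactors Dnajb11 and Dnajc3 lay at -0.12 and -0.13. Dnajc3 is read by 2 features that hold identical values, and the weaker feature of Pdia4 was dim, with a mean of 6.32 against 10.10 for the one used. Manf, a secreted ER stress protein that binds BiP, and Creld2, a calcium-binding ER protein, had fold changes of -0.03 and 0.09.

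Dnajb9 (ERdj4) represses IRE1 by bringing BiP to it, and its mRNA depends on XBP1. Dnajb9 was at 9.28, 9.27, 8.99, 9.40 and 9.14 in Phf2 livers, against 8.22, 8.59, 9.87, 9.07 and 9.77 in GFP livers. The means were 9.22 and 9.10, but the SD was 0.16 in Phf2 and 0.72 in GFP livers, with the Phf2 values lying in the middle of the GFP range. The fold change was 0.11 ± 0.27 (SE, adjusted p = 0.865). A larger SD in the GFP than in the Phf2 group was found for 28 of the 33 members (84.8%), against 60.3% of all genes, and in both arms. GFP replicate 3 was the highest GFP array for 19 members (57.6%), against 17.6% of all genes, and Phf2 replicate 4 was the highest Phf2 array for 20 members, against 18.9% of all genes. Both patterns were noticed in these values and have no test.

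**Figure D3:**
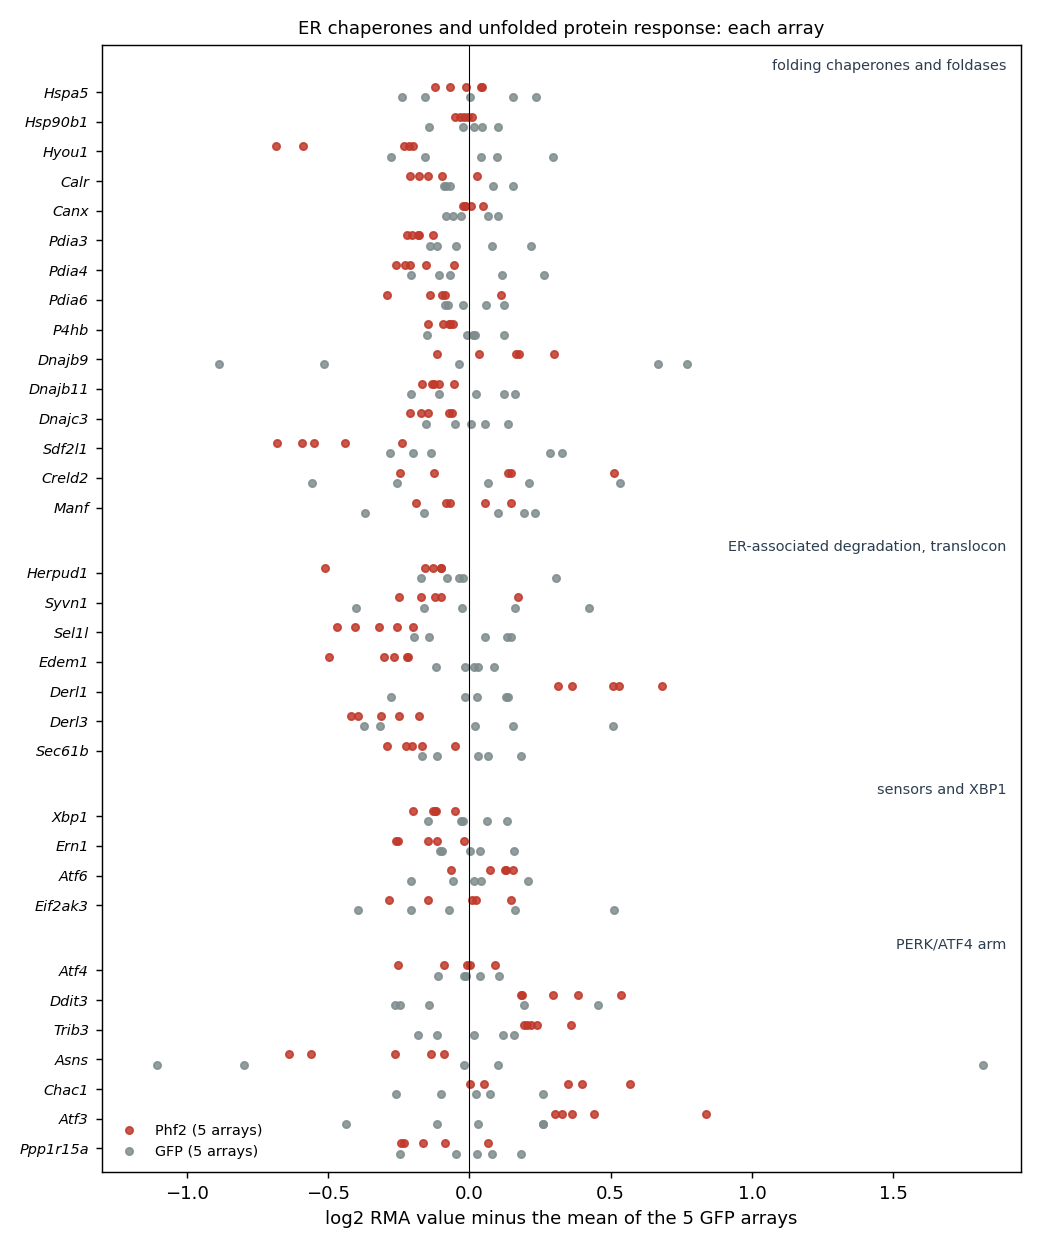
Each array's log2 RMA value minus the GFP mean of that gene (x axis) for the 33 genes, with Phf2 arrays in red above GFP arrays in grey. Dnajb9 and Asns show the widest GFP spread, Sel1l and Edem1 have all Phf2 points left of the GFP points, and Derl1, Trib3 and Atf3 have all of them to the right.

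Promoters were read from RefSeq (GRCm38.p6) as windows from 250 bases before to 50 bases after a gene's start, and 29 of the 33 members were matched, all but Hyou1, Manf, Derl1 and Atf6. The ER stress response element (ERSE) was searched on both strands as CCAAT, then 9 bases of any kind, then CCACG. It stood in 9 of the 29 windows, those of Hspa5, Hsp90b1, Calr, Canx, Pdia6, Dnajc3, Creld2, Syvn1 and Derl3, against 0.119% of all 32851 mouse windows. Its variant ERSE-II (ATTGG, 1 base of any kind, CCACG) stood in those of Dnajb11 and Herpud1, against 0.0365% of all windows. The UPRE (TGACGTGG) was in 0 of 29, against 0.676%, and the shared CCACG core, which the ERSE and ERSE-II contain, in 22 of 29, against 32.8%. The following sites are shown because these classical chaperone and degradation genes share the element while none of them passed the test, each read in the element's own direction with 5 flanking bases and with the fixed letters in capitals.
Hspa5 ERSE (chr2:34772020-34772048, plus strand): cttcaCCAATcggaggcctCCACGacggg
Calr ERSE (chr8:84847070-84847098, plus strand): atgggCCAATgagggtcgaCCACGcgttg
Canx ERSE (chr11:50325795-50325823, minus strand): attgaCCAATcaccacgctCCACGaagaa
Pdia6 ERSE (chr12:17266486-17266514, plus strand): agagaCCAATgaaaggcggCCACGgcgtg
Dnajc3 ERSE (chr14:118937822-118937850, plus strand): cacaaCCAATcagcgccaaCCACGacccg
Syvn1 ERSE (chr19:6046527-6046555, plus strand): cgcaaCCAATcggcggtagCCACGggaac
Herpud1 ERSE-II (chr8:94386372-94386392, plus strand): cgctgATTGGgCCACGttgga

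None of the 9 genes with an ERSE was called in either direction, where 5.43% of all genes were called higher and 4.24% lower. At these shares few or no calls are due among 9 genes. Their fold changes ran from -0.31 to 0.09 with a median of -0.09. The 3 genes that fell, Sdf2l1, Sel1l and Edem1, had the CCACG core in these windows but neither the ERSE nor ERSE-II. For comparison with the sites above, the whole Sdf2l1 window (chr16:17132334-17132633, minus strand) follows on the gene's own strand, with its CCACG cores in capitals, all of which lie on the opposite strand and so read CGTGG.
Sdf2l1 window: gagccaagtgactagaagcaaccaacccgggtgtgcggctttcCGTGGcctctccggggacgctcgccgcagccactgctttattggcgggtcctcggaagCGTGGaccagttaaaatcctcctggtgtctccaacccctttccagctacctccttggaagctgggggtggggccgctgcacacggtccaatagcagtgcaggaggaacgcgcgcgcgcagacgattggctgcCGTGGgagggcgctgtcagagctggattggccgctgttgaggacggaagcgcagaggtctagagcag

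ER-associated degradation returns misfolded proteins to the cytosol, and its genes gave 3 of the 4 calls, in both directions. Of the 7 degradation and entry genes, 1 was higher (14.3%, against 5.43% of all genes) and 2 were lower (28.6%, against 4.24%). Sel1l is the adaptor that holds the ubiquitin ligase Hrd1 (Syvn1) together with its substrates. Sel1l was at 8.84, 8.92, 8.98, 9.04 and 8.77 in Phf2 livers, against 9.39, 9.10, 9.37, 9.04 and 9.29 in GFP livers. All Phf2 values were below all GFP values, although the replicates numbered 4 met at 9.04 after rounding. Sel1l fell by 0.33 on the log2 scale (SE 0.08, adjusted p = 0.0274, exact permutation p = 0.00794, the smallest that 5 against 5 can give). The call was lost without any one of GFP replicates 1, 3 and 5 or Phf2 replicates 1, 2 and 5, with fold changes from -0.33 to -0.29 and adjusted p up to 0.0706. Syvn1 itself had a fold change of -0.09 ± 0.14 (SE, adjusted p = 0.755).

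Edem1 is a mannosidase-like protein that marks misfolded glycoproteins for removal and a known XBP1 target. Edem1 was at 8.78, 8.58, 8.81, 8.86 and 8.86 in Phf2 livers, against 9.06, 9.11, 9.16, 8.96 and 9.09 in GFP livers. Its groups were apart, with the highest Phf2 values at 8.86 and the lowest GFP value at 8.96. Edem1 fell by 0.30 on the log2 scale (SE 0.07, adjusted p = 0.0162, exact permutation p = 0.00794), and it stayed past the threshold without any single array.

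Derl1 moved the other way. Derlin-1 is a membrane protein of the retrotranslocation channel. Derl1 was at 8.77, 8.97, 9.14, 8.99 and 8.82 in Phf2 livers, against 8.49, 8.59, 8.44, 8.18 and 8.59 in GFP livers. Each Phf2 liver was above each GFP liver, and GFP replicate 4 was the lowest. Derl1 rose 1.39-fold (log2 fold change 0.48 ± 0.09, SE, adjusted p = 0.00634, exact permutation p = 0.00794), and it stayed past the threshold without any single array. Its relative Derl3, which is XBP1-dependent and prominent in secretory glands, was at 5.82, 5.84, 6.06, 5.92 and 5.99 in Phf2 livers, against 6.74, 5.92, 6.26, 5.86 and 6.39 in GFP livers, with a difference of -0.31 ± 0.14 (SE, adjusted p = 0.229). GFP replicate 1 was the highest. Herpud1, a scaffold of the Hrd1 complex, and Sec61b, a subunit of the channel through which new proteins enter the ER, had fold changes of -0.20 and -0.19 (adjusted p = 0.290 and 0.169), and the other features of Sec61b gave -0.18 and -0.16.

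Among the sensors and XBP1, 0 of 4 passed, where 5.43% of all genes were called higher and 4.24% lower. At these shares few or no calls are due among 4 genes. Xbp1 was at 8.30, 8.38, 8.38, 8.45 and 8.37 in Phf2 livers, against 8.47, 8.35, 8.48, 8.63 and 8.56 in GFP livers. Most Phf2 livers lay just below most GFP livers, and the difference was -0.12 ± 0.06 (SE, adjusted p = 0.287, exact permutation p = 0.0476). Ern1, which encodes IRE1, had the smallest p of this group. Ern1 was at 7.14, 7.25, 7.28, 7.38 and 7.13 in Phf2 livers, against 7.39, 7.29, 7.55, 7.43 and 7.30 in GFP livers, a difference of -0.16 ± 0.07 (SE, adjusted p = 0.217, exact permutation p = 0.0397) with overlapping groups. Atf6 and Eif2ak3 had fold changes of 0.08 ± 0.08 and -0.05 ± 0.15 (SE, adjusted p = 0.613 and 0.895).

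In the PERK/ATF4 arm 0 of 7 genes passed, with Atf4 close to 0 and Ddit3, Trib3, Chac1 and Atf3 above it. With 5.43% of all genes called higher and 4.24% lower, few or no calls are due among 7 genes. Atf4 encodes the factor of this arm and was at 7.98, 8.14, 8.24, 8.23 and 8.32 in Phf2 livers, against 8.27, 8.22, 8.12, 8.22 and 8.34 in GFP livers, and the difference of -0.05 ± 0.07 (SE, adjusted p = 0.749) had an interval from -0.21 to 0.11. Phf2 replicate 1 was the lowest and the other arrays intermingled. Ddit3 encodes CHOP, a transcription factor tied to cell death under lasting stress. Ddit3 was at 6.998, 7.11, 7.20, 7.35 and 6.995 in Phf2 livers, against 6.57, 6.55, 7.27, 6.67 and 7.01 in GFP livers. GFP replicates 3 and 5 lay among the Phf2 values and the remaining GFP livers below them, so that the difference of 0.32 ± 0.13 (SE) had an adjusted p of 0.180. Without GFP replicate 3 it was 0.43 and past the threshold (adjusted p = 0.0278).

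Atf3, an inducible stress factor, had the smallest p of this arm. Atf3 was at 6.34, 6.46, 6.85, 6.38 and 6.32 in Phf2 livers, against 6.28, 6.05, 5.90, 5.58 and 6.28 in GFP livers. The groups were apart by a narrow margin, with Phf2 replicate 3 the highest and GFP replicate 4 the lowest. The difference of 0.45 ± 0.14 (SE, exact permutation p = 0.00794) missed the threshold, with an adjusted p of 0.0629. Trib3, a pseudokinase that damps ATF4 and CHOP, was at 5.28, 5.26, 5.31, 5.43 and 5.27 in Phf2 livers, against 5.22, 5.08, 4.95, 5.19 and 4.89 in GFP livers. All Phf2 livers were above all GFP livers, at values close to the array medians, and the difference was 0.24 ± 0.08 (SE, adjusted p = 0.0644, exact permutation p = 0.00794). Both genes passed when dim features were left out of the adjustment (adjusted p = 0.0423 for Atf3 and 0.0442 for Trib3). Atf3 also passed with the pancreatic marker mean described below in the model (adjusted p = 0.0253) and without GFP replicate 5 (adjusted p = 0.0485), and Trib3 without GFP replicate 1 (adjusted p = 0.0453). Chac1, which degrades glutathione, had a difference of 0.27 ± 0.12 (SE, adjusted p = 0.208). Ppp1r15a (GADD34), the phosphatase subunit that reverses eIF2α phosphorylation, had -0.13 ± 0.09 (SE, adjusted p = 0.444).

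Asns encodes asparagine synthetase, a classical ATF4 target that is rich in pancreas. Asns was at 6.20, 6.67, 6.49, 6.62 and 6.12 in Phf2 livers, against 8.57, 5.96, 5.65, 6.86 and 6.74 in GFP livers. GFP replicate 1 was far above all other livers, and the difference of -0.34 ± 0.42 (SE, adjusted p = 0.716) became 0.12 without it. That array also held the highest signal of 15 pancreatic acinar genes. Their mean was 5.61, 10.17, 9.46, 8.13 and 5.75 on the Phf2 arrays, against 11.93, 7.72, 6.50, 5.79 and 7.18 on the GFP arrays. The group means of this list were equal (7.82 each), but its arrays differed widely within both groups. In a model with group and this mean, Asns rose by 0.26 per log2 unit of pancreatic signal, Atf3 by 0.08 and Derl3 by 0.07, and Dnajb9 changed by -0.13. These are the 4 largest slopes of the 33 members, given without SE or test. For Asns, GFP replicate 1 was highest on both measures, whereas GFP replicate 4, at a pancreatic mean of 5.79, had 6.86. With this mean in the model all 4 called members kept their calls. Derl1 had 0.48 (adjusted p = 0.00399), Sel1l -0.33 (0.0187), Edem1 -0.30 (0.0201) and Sdf2l1 -0.50 (0.0353). The part of pancreatic RNA in these values was not tested. Without the 3 arrays with a pancreatic mean above 9 (Phf2 replicates 2 and 3, GFP replicate 1), 0 members passed in either direction, and 595 of all genes did. Derl1 then had 0.41 (adjusted p = 0.104), Edem1 -0.25 (0.177), Sdf2l1 -0.54 (0.152) and Sel1l -0.32 (0.187), with 3 Phf2 and 4 GFP arrays left.

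**Figure D4:**
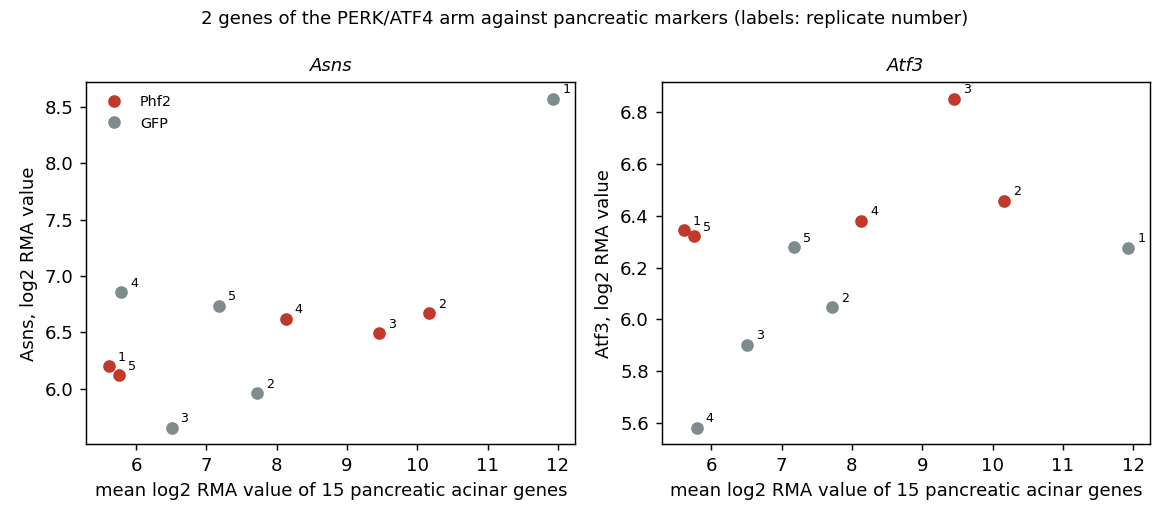
Log2 RMA value (y axis) of Asns (left) and Atf3 (right) against the mean of 15 pancreatic acinar genes on the same array (x axis), with Phf2 arrays in red, GFP arrays in grey and replicate numbers as labels. GFP replicate 1 stands apart on both axes for Asns, at 11.93 and 8.57, and all Phf2 arrays lie above all GFP arrays for Atf3.

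The element that ATF4 binds with C/EBP partners, the CARE, was searched as TGATG, 1 base of any kind, then AA on both strands. It stood in 4 of the 7 windows of the PERK/ATF4 arm, those of Asns, Atf3, Chac1 and Trib3, and in that of Herpud1, against 3.97% of all windows. These sites are shown because their genes include the 2 of this arm whose groups did not overlap, Atf3 and Trib3, in the same form as the ERSE sites.
Atf3 CARE (chr1:191183431-191183448, plus strand): cttggTGATGcAAgtgcg
Trib3 CARE (chr2:152344034-152344051, plus strand): ccggcTGATGtAAacctg
Chac1 CARE (chr2:119351044-119351061, minus strand): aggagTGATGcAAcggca
Asns CARE (chr6:7693220-7693237, minus strand): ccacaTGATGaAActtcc
Herpud1 CARE (chr8:94386312-94386329, minus strand): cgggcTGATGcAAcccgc

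Fold changes of the 5 genes ran from -0.34 to 0.45, and 0 were called, where 5.43% of all genes were called higher and 4.24% lower. At these shares few or no calls are due among 5 genes. The genes without a CARE in this window were Atf4, Ddit3 and Ppp1r15a.

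Other genes of the same pathways were read from longer lists, chosen like the members with earlier results of these data known. Their shares are therefore descriptions and no independent support. The lists of folding genes, degradation and entry genes, and ATF4 targets divided in the same 2 directions and gave more calls. Of 24 other ER folding genes, 8 were lower (33.3%, against 4.24% of all genes) and 0 higher (against 5.43%), with a median of -0.17 (all genes -0.01). Pdia5, a disulfide isomerase reported to act on ATF6 in human cells, was at 7.77, 7.38, 7.30, 7.48 and 7.45 in Phf2 livers, against 8.55, 8.60, 8.58, 8.44 and 8.36 in GFP livers, and fell by 1.03 on the log2 scale (SE 0.09). No Phf2 liver came near a GFP liver. Prdx4, the ER peroxiredoxin, fell by 0.67, the sulfhydryl oxidase Qsox1 by 0.62 and the disulfide isomerase Txndc5 by 0.42. Pdia5, Prdx4 and Qsox1 kept their calls under all 21 other settings, and Txndc5 lost its call under 2. Of 26 other degradation and entry genes, 4 were lower (15.4%, against the same 4.24% of all genes) and 0 higher (median -0.09). These were Os9, a lectin that brings glycoproteins to the Sel1l complex (-0.48), the signal peptidase subunit Spcs3 (-0.41), the translocon-associated Ssr4 (-0.40) and the Edem1 relative Edem2 (-0.35).

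Of 25 other ATF4 targets, 5 were higher (20%, against 5.43% of all genes) and 2 lower (8%, against 4.24%). Of their fold changes 20 were above 0 and 5 below (20%, against 54.7% of all genes), with a median of 0.12. Whether ATF4 acted on these genes was not tested. Fgf21, a fasting and stress hormone of the liver, was at 5.99, 7.42, 8.06, 7.89 and 6.12 in Phf2 livers, against 5.62, 5.64, 5.63, 5.53 and 5.79 in GFP livers. All Phf2 livers were above all GFP livers, with replicates 2, 3 and 4 far above replicates 1 and 5, and Fgf21 rose by 1.46 ± 0.36 (SE, adjusted p = 0.0227). The lipoprotein receptor gene Vldlr rose by 1.01. Cth, an enzyme of cysteine synthesis, fell by 1.01 on the log2 scale in Phf2 livers, with values of 10.61, 9.30, 9.06, 9.12 and 10.56 against 10.73, 10.86, 10.55, 10.79 and 10.77 in GFP livers, and the low Phf2 livers were again replicates 2, 3 and 4. The mitochondrial serine enzyme Shmt2 fell by 0.59. Vldlr and Shmt2 kept their calls under all 21 other settings, whereas Fgf21 lost its call under 8 and Cth under 13. For Fgf21 these included leaving out any one of Phf2 replicates 2 and 4 or GFP replicates 2 and 4 (fold changes of 1.26 to 1.46), and for Cth any one of Phf2 replicates 2, 3 and 4 or of the GFP replicates (fold changes of -1.06 to -0.85). Phf2 replicates 2, 3 and 4 also had the 3 highest Phf2 values of the PERK/ATF4 mean without Asns and of the pancreatic markers given above. Of the marker lists described below, their hepatocyte means were the lowest (11.79, 11.65 and 11.65, against 11.97 and 11.98 in replicates 1 and 5). Their T and NK cell means were the highest (5.42, 5.82 and 5.91, against 5.36 and 5.34). GFP replicate 1, with the most pancreatic signal, had Fgf21 at 5.62 and Cth at 10.73. What sets these livers apart was not tested. Of 16 other regulators of the response, 1 was lower (6.25%, against 4.24% of all genes), the hepatocyte ER-bound factor Creb3l3 (-0.30 ± 0.07, SE, adjusted p = 0.0165). The median of these 16 was -0.01, as for all genes, and 62.5% lay below 0, against 54.7% of all genes.

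**Figure D5:**
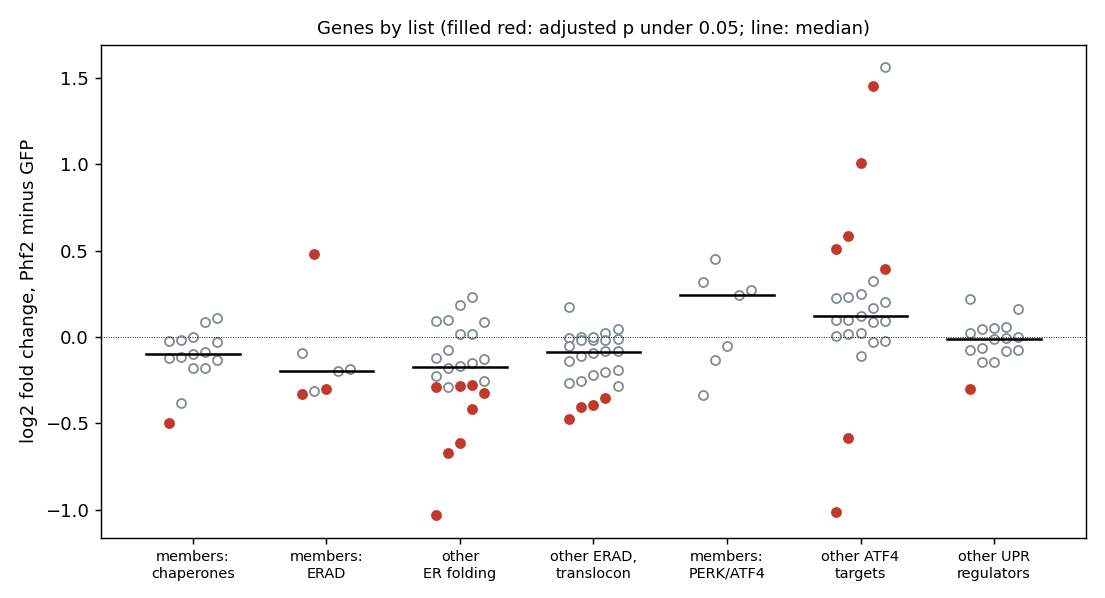
Log2 fold change (y axis, Phf2 minus GFP) of the chaperone, degradation (ERAD) and PERK/ATF4 members and of the genes of 4 longer lists, with the genes past the adjusted threshold in filled red and the list median as a line. Medians lie between -0.20 and -0.09 in the 4 folding and degradation groups, and at 0.24 and 0.12 for the PERK/ATF4 members and the other ATF4 targets.

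Markers of some other cells moved with the groups too. Among all genes, 5.43% were called higher and 4.24% lower. The mean of 9 T and NK cell genes was 5.34 to 5.91 on the Phf2 arrays and 4.72 to 4.99 on the GFP arrays, with 6 of the 9 genes higher. Of 10 macrophage genes, 1 was higher and 4 were lower, and their mean was 6.88 to 7.19 in Phf2 and 7.21 to 7.73 in GFP livers. That mean pools both directions. The lower ones were Cd163 (-1.89), Timd4 (-1.59), Clec4f (-0.54) and Marco (-0.37), and the higher one was Lyz2 (0.64). Without a call, Cd68, Adgre1 and Csf1r lay above 0 and Vsig4 and Itgam below it. Of 11 plasma and B cell genes, 1 was higher and 1 was lower, with overlapping means (4.88 to 5.34 in Phf2 and 4.83 to 5.08 in GFP livers). The labelled tissue was checked with 8 hepatocyte genes, all well above the array medians, whose mean was 11.65 to 11.98 on the Phf2 arrays and 12.03 to 12.13 on the GFP arrays, with 4 of 8 lower. In whole liver, fewer cells of a type and less RNA per cell cannot be told apart. The part of these cells in the ER gene values was not tested.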

How the data were processed

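The authors normalized 10 Affymetrix Gene ST arrays, 1 per liver, with RMA in Bioconductor and analysed them in Partek GS, and deposited log2 values, which were used as given. Their versions and genome build are not stated in the sources used here. The paper's text names a human array and an RNeasy kit, but the features match a mouse array annotation and the labels give a different kit. Of 35556 features, 21789 had 1 symbol and gave 19938 genes, with the feature of highest mean kept per gene. Groups came from the sample labels. lmFit and eBayes of limma 3.58.1 (R 4.3.3) were run without covariates, at a Benjamini-Hochberg adjusted p under 0.05. Single genes also had an exact two-sided permutation test over 252 splits, whose smallest p is 0.00794. The pipeline was tested on simulated data.

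The members and lists were chosen with earlier results of these data known. All members are named, with every array's value for called genes, for Hspa5, Xbp1, Atf4 and Ddit3, for the smallest p of a role group without a call, and for genes whose spread or sites are described. Of each longer list up to 4 called genes with the largest change are named. Array medians lay between 5.06 and 5.18 and array correlations between 0.973 and 0.9963. No pair of arrays was identical. The number of arrays limits the precision. Longer lists held 24, 29, 28 and 18 genes, of which 24, 26, 25 and 16 were measured. Promoter sequences came from RefSeq (GRCm38.p6). Other settings tried were array weights, the methods' t-test, a robust prior with an intensity trend, leaving out dim features, quantile normalization, median centring, the whole feature table, features averaged per gene, a replicate block, the pancreatic marker mean as a covariate, the study's thresholds, and leaving out each array. Leaving out the 3 arrays highest in pancreatic markers was chosen after seeing the data.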

Additional observations from a re-analysis of the deposited data

Results flagged for a closer look

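In 3 of 92 groups of 5 arrays tested, 1 array stood far from the others by Dixon's criterion (a gap of over 0.71 of the group's range), which chance gives in about 1 of 20 groups. Herpud1, the Hrd1 scaffold, was at 9.57 in Phf2 replicate 5, below the other Phf2 livers at 9.92 to 9.98. Trib3 was at 5.43 in Phf2 replicate 4, above the other Phf2 livers at 5.26 to 5.31. Atf3 was at 6.85 in Phf2 replicate 3, above the other Phf2 livers at 6.32 to 6.46.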

How the results depend on the processing

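The arm medians kept their sign wherever they were computed. Leaving out each array in turn gave medians of -0.160 to -0.097 for the ATF6/XBP1 arm and 0.198 to 0.273 for the PERK/ATF4 arm, 1 to 2 members higher, 1 to 3 members lower and 1309 to 2132 genes called in all. The members called changed by over 1.5 times under these settings, and the cause was not tested unless the setting shows it. With the study's thresholds (1.5-fold and unadjusted p under 0.05) 0 members were higher, 0 lower and 706 genes passed in all. The methods' t-test left 1 member lower, and at the study's thresholds it gave 694 genes and 0 members. The adjustment over all features left 1 lower. With dim features left out, 3 were higher, and with the pancreatic marker mean as a covariate, 2 were higher. In both settings 3 members stayed lower. Without the 3 arrays highest in pancreatic markers, 0 were higher, 0 lower and 595 genes passed in all, with fewer arrays.

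With the replicate number as a block 0 members were lower (Edem1 adjusted p = 0.0554, Sdf2l1 0.0652, Sel1l 0.0776) and 1514 genes passed in all. The deviations of same-numbered arrays correlated at -0.29 to -0.04 and 0 of 10 arrays correlated best with their own number. The labels do not say what same-numbered arrays share, and these correlations cannot decide it.

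Of 693 values of single members under the alternatives, 636 kept direction and side of the threshold, 23 fell out of it, 7 came into it and 27 changed sign. Derl1 was called in 20 of 21 settings, Edem1 in 19, Sdf2l1 in 11 and Sel1l in 11. With array weights Hspa5 was 0.0059 and Manf 0.0076, after quantile normalization Hspa5 was 0.0094, and after median centring Canx was -0.019. Without the 3 arrays Canx was -0.010, Dnajb9 -0.052 and Asns 0.011. Leaving out single arrays gave Hspa5 -0.083 to 0.036, Hsp90b1 -0.055 to 0.0064, Canx -0.020 to 0.027, Dnajb9 -0.109 to 0.305, Creld2 -0.053 to 0.219, Manf -0.119 to 0.031, Syvn1 -0.195 to 0.012, Eif2ak3 -0.147 to 0.079 and Asns -0.612 to 0.118. Of 273 values of the 13 named genes of longer lists, 0 changed sign and 27 lost the call. Of all calls 56.1% were higher in Phf2, against 49.0% after quantile normalization and 46.4% after median centring.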
